A study of Mus musculus with 9 samples.

Results

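Hearts of mice homozygous for a frameshift allele of Rbm20 were compared with wild-type hearts, outside the titin gene Ttn, in the splicing of exons and in the expression of genes. The comparison takes 6 of the 9 libraries of the series, chosen by their titles, with 3 homozygous and 3 wild-type libraries, all of heart RNA from mice aged 12 weeks. The knock-in allele was made by CRISPR/Cas editing, lacks 2 bases and shifts the reading frame from codon 374 of mouse Rbm20. The allele sits at the Rbm20 locus itself and is not limited to a cell type. The other 3 libraries are heterozygous for the same allele, and their values are given for reference. The labels do not say that the libraries of a group come from different animals. The p-values given here therefore rest on the spread between libraries, which may be technical.

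RBM20 is an RNA-binding protein of heart and skeletal muscle that binds introns of its target transcripts and represses the inclusion of nearby exons. Its best known target is Ttn, and others encode calcium-handling, Z-disc and membrane-anchoring proteins. Loss of RBM20 function in rodents and in people is known to give hearts with longer titin isoforms and a dilated cardiomyopathy.

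The deposited table divides exons into exonic parts, the pieces bounded by annotated exon edges, and gives for each part the percent spliced in (PSI), a fraction from 0, always skipped, to 1, always included. Per library, the parts held 297 to 323 M inclusion reads, with a read counted in each part that it spans, and 52.6 to 62.3 M exclusion reads, which skip a part. Mitochondrial genes took between 16.85 and 19.66% of inclusion reads. Of 55648 parts tested, 230 were called (0.413%), and the 375 tested parts of Ttn, which held the majority of these, are not described further. The cardiomyocyte markers Myh6, Tnnt2 and Actc1 were at 4400 CPM, counts scaled to a common library size, or more in each wild-type and homozygous library. Atrial transcripts were uneven. Myl7, the atrial myosin light chain, stood at 28.1, 3.25 and 5.88 CPM in the wild-type libraries, 0.0933, 1.42 and 357 in the heterozygous and 0.0999, 0.00689 and 5.53 in the homozygous. Wild-type library 1 and heterozygous library 3 therefore stand apart in atrial RNA.

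The exons printed here belong to genes whose splicing is described next, and are given in transcript orientation, 5′ to 3′. Positions are those of the deposited table on GRCm39. Letters come from GENCODE M21 transcripts, annotated on GRCm38, after the lengths and spacing of each gene's exons were matched between both. Capitals mark the smaller of the exonic parts where an annotated alternative edge divides an exon. The first pair are the alternative exons of Camk2d, at chr3:126599506-126599565 on the plus strand (60 bases, parts 49 and 50) and chr3:126596586-126596618 on the plus strand (33 bases, parts 46 and 47).
Camk2d, exon that rose: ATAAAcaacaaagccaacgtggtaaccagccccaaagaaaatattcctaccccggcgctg
Camk2d, exon that fell: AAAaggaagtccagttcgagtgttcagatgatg

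In Ldb3, on the minus strand, an exon of 359 bases at chr14:34298943-34299301 fell, and exons of 23 bases at chr14:34294947-34294969 and 15 bases at chr14:34291670-34291684 rose, as did an exon of 204 bases. Of the exon that fell, the last 100 bases are printed, at chr14:34298943-34299042. The 3 exons that rose sum to 242 bases and leave a remainder of 2 when divided by 3, the same remainder as the exon that fell.
Ldb3, end of the exon that fell: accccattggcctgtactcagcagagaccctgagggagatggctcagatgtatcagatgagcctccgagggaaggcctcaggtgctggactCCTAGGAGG
Ldb3, first exon that rose: gtggtagccaattctccagccaa
Ldb3, last exon that rose: ggcgtctccgctggc

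In Ank3, 4 exons on the plus strand rose, at chr10:69842633-69842683 (51 bases), chr10:69844608-69844694 (87 bases), chr10:69849802-69849885 (84 bases) and chr10:69850020-69850076 (57 bases). Each is a multiple of 3, and together they hold 279 bases.
Ank3, 51-base exon: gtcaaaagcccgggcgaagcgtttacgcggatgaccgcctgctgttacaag
Ank3, 87-base exon: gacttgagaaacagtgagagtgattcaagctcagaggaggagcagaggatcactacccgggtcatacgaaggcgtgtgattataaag
Ank3, 84-base exon: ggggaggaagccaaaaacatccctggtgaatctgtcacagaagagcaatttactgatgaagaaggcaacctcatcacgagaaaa
Ank3, 57-base exon: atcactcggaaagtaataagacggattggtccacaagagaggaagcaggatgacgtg

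Short coding exons of 3 further genes are shown because each changed as a single exon and keeps the reading frame. They lie at chr13:11649193-11649216 on the minus strand (Ryr2, 24 bases), chr14:70463377-70463403 on the minus strand (Ppp3cc, 27 bases) and chr8:78109354-78109419 on the minus strand (Arhgap10, 66 bases).
Ryr2 part 32: gtcacaggatcccaacgcagcaag
Ppp3cc part 7: atcactacatttcaagctgtccaaaag
Arhgap10 part 12: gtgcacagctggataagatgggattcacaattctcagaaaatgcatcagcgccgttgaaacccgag

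Rbm20 itself was examined first. Its transcript level was 105, 104 and 132 CPM in the wild-type libraries, 85.5, 68.4 and 90.2 in the heterozygous and 66, 51.8 and 54.7 in the homozygous. All homozygous libraries lay below all wild-type libraries. The log2 fold change was -0.98 (SE 0.139, edgeR adjusted p = 0.00428), and the call was kept in all 17 alternative analyses. A coding part of 13 bases within Rbm20, part 11, also rose in inclusion, from 0.102, 0.0811 and 0.0861 to 0.22, 0.263 and 0.3, a difference of 0.171 (SE 0.0254, limma adjusted p = 0.0289). That part's call was lost on leaving out any wild-type library, homozygous library 2 or 3, or heterozygous library 1 or 3.

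Outside Ttn, inclusion changed in a small share of parts, and mostly upward. Of 55273 parts tested, 82 were called (0.148%). A call needed a difference in mean PSI of 0.1 or more in size and a Benjamini-Hochberg adjusted p below 0.05 in limma. Among these, 61 rose (0.110%) and 21 fell (0.0380%). They belong to 55 gene identifiers of the 10687 with a tested part (0.515%). In 43 of the 55 only rises were called, in 9 only falls, and in Camk2d, Ldb3 and 2310002L09Rik both. Homozygous and wild-type libraries did not overlap in any of the 82 parts, against 12.1% of all tested parts outside Ttn without overlap. The median size of the difference was 0.29, and 19 parts of 9 gene identifiers reached 0.5. Before adjustment, 4107 parts had a p below 0.05.

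The called parts resembled the tested parts in length. Their median was 100 bases against 103 among all tested parts, 40.2% against 37.3% had a length divisible by 3, and 18.3% against 16.7% held 27 bases or fewer. Matched to the annotated transcripts, 42 parts were coding, 9 partly coding and 15 untranslated, 11 lay in noncoding transcripts and 5 had no match. Of 32 coding parts that form whole internal exons, in 22 genes, 20 had a length divisible by 3. Many other called parts lie only in annotated first or last exons. Among them are Fhl1 part 8, Scube2 part 9, Map6 part 4, Rbm20 part 11 and all called parts of 2310002L09Rik. In those, a change of transcript start or end cannot be told apart from a change in splicing. Called parts were covered by a median of 263 reads per library against 119 for tested parts, and the part of coverage in which parts were called was not tested. A part shared by overlapping genes was called in 8 joined identifiers.

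**Figure D1:**
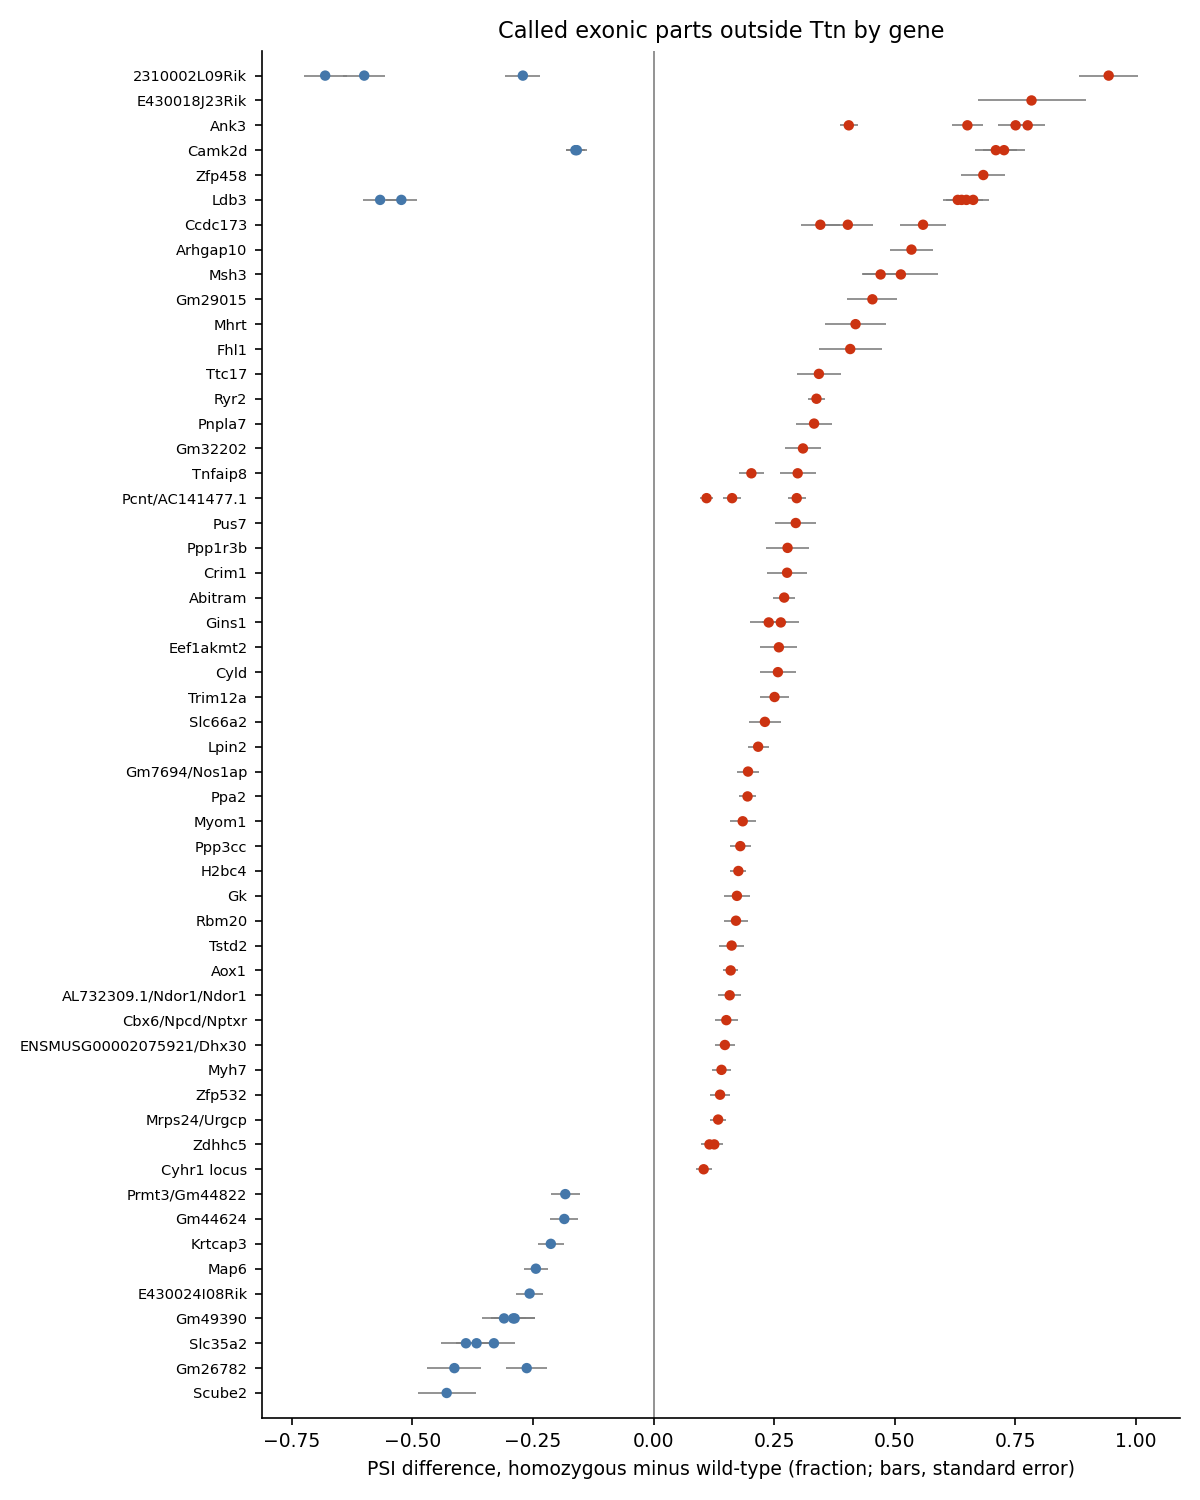
PSI difference, homozygous minus wild-type, of called parts outside Ttn (points, with standard error), by gene identifier; red points rose and blue points fell. Rises are called in more genes than falls, and 2310002L09Rik, Camk2d and Ldb3 hold points on both sides of 0. Cyhr1 locus is a joined identifier of Cyhr1 and overlapping genes.

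Among calcium signalling genes, Camk2d gained a 60-base exon, with a smaller fall of a 33-base exon, and Ryr2 and Ppp3cc gained short exons. Camk2d encodes the delta isoform of calcium/calmodulin-dependent kinase II, the main cardiac form, whose alternative exons lie between the catalytic and the association domains. Its 60-base exon (part 50) was included at 0.0906, 0.142 and 0.158 in wild-type libraries, 0.599, 0.583 and 0.606 in heterozygous and 0.835, 0.866 and 0.871 in homozygous libraries. This exon was a minor form in each wild-type library and the major form in each homozygous library, a difference of 0.727 (SE 0.0433, adjusted p = 4.73e-05). The 33-base exon (part 47) fell from 0.252, 0.25 and 0.234 to 0.107, 0.0709 and 0.0809, a difference of -0.159 (SE 0.0215, adjusted p = 0.0159). Its call, unlike that of the 60-base exon, was lost on leaving out any wild-type library or homozygous library 2 or 3.

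Ryr2 encodes the channel through which the sarcoplasmic reticulum releases calcium. Inclusion of its 24-base exon was 0.0254, 0.0248 and 0.0188 in wild-type, 0.0485, 0.0586 and 0.0487 in heterozygous and 0.36, 0.381 and 0.34 in homozygous hearts (difference 0.338, SE 0.0173, adjusted p = 2.06e-05). The homozygous values stood apart from both other groups. Ppp3cc encodes a catalytic subunit of the calcium-dependent phosphatase calcineurin, and its 27-base exon rose from 0.0454, 0.0337 and 0.0653 to 0.253, 0.186 and 0.246 (difference 0.18, SE 0.0215, adjusted p = 0.00681). In Ppp3cc the heterozygous libraries lay between both groups. The Ppp3cc call was kept on leaving out each library, and that of Ryr2 was kept in all 19 alternatives.

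Z-disc and sarcomere genes held the exchange in Ldb3 and smaller rises. Ldb3 encodes cypher, also named ZASP, which anchors alpha-actinin at the Z-disc. Its 359-base exon (part 21) fell from 0.976, 0.973 and 0.977 through 0.816, 0.824 and 0.84 in heterozygous libraries to 0.456, 0.465 and 0.436 in homozygous libraries (difference -0.523, SE 0.0325, adjusted p = 6.09e-05). The 204-base exon (part 18) rose from 0.0574, 0.0659 and 0.0596 through 0.301, 0.287 and 0.269 to 0.727, 0.698 and 0.745 (difference 0.663, SE 0.0334, adjusted p = 1.83e-05). The 3 groups do not overlap for either exon, and the 15-base and 23-base exons rose by 0.631 and 0.639.

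Fhl1 encodes a LIM-domain protein of the sarcomere. Inclusion of its 65-base part 8 was 0.0856, 0.106 and 0.0599 in wild-type hearts and 0.314, 0.575 and 0.584 in homozygous hearts (difference 0.408, SE 0.0649, adjusted p = 0.045). Homozygous library 1 was the lowest of its group, and the call was lost on leaving out any 1 of the 9 libraries except homozygous library 1. Myom1 encodes myomesin, a crosslinker of the M-band, and its 294-base part 29 rose from 0.0859, 0.0857 and 0.0972 to 0.326, 0.248 and 0.249 (difference 0.185, SE 0.027, adjusted p = 0.0266). That call was lost without any 1 of the wild-type libraries or heterozygous library 2.

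Parts at the Myh7 locus also changed. Myh7 encodes the beta form of cardiac myosin heavy chain and is a close paralog of Myh6. Part 45 of Myh7, with 62 coding bases, went from 0.0362, 0.0307 and 0.038 to 0.166, 0.218 and 0.143 (difference 0.141, adjusted p = 0.016). Part 19 of the antisense transcript Mhrt rose by 0.419 (adjusted p = 0.0332), and part 2 of Gm29015 rose by 0.454 (adjusted p = 0.00504). On chromosome 14, Mhrt (55206104 to 55211920) and Gm29015 (55210486 to 55210816) overlap Myh7 (55208141 to 55232083) on GRCm39. It is not stated whether the strand was used in counting, so reads of the 3 genes cannot be told apart where they overlap. Part 45 of Myh7 (55229697 to 55229758) lies outside the overlap. The Myh7 call was lost without any 1 wild-type library. For Mhrt the call was lost without any 1 library except homozygous library 2.

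Large rises also lay in genes that anchor membranes or signal to the cytoskeleton. Ank3 encodes ankyrin-G, which ties ion channels and adhesion molecules to the spectrin skeleton. Its 84-base exon was at 0.0241, 0.0284 and 0.0128 in wild-type, 0.15, 0.169 and 0.182 in heterozygous and 0.835, 0.739 and 0.819 in homozygous hearts (difference 0.776, SE 0.0363, adjusted p = 1.33e-05). Almost all wild-type transcripts with reads across this exon skipped it, and most homozygous ones included it. The neighbouring exons of 51, 87 and 57 bases rose by 0.651, 0.751 and 0.405. Arhgap10 encodes a GTPase-activating protein, and its 66-base exon rose from 0.43, 0.338 and 0.347 through 0.663, 0.679 and 0.706 to 0.926, 0.907 and 0.888 (difference 0.535, SE 0.0445, adjusted p = 0.000458). The calls in Ank3 and Arhgap10 were kept in all 19 alternatives.

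Among the 21 parts that fell, apart from those of Ldb3 and Camk2d, 3 lay in Slc35a2, the UDP-galactose transporter of the Golgi. Its part 22 fell from 0.719, 0.605 and 0.744 to 0.289, 0.294 and 0.318 (difference -0.389, SE 0.0509, adjusted p = 0.0126), with heterozygous libraries at 0.548, 0.589 and 0.54. Part 9 of Scube2, which encodes a secreted protein with EGF repeats, fell from 0.964, 0.828 and 0.91 to 0.589, 0.398 and 0.427 (difference -0.429, SE 0.0603, adjusted p = 0.0206). Part 4 of Map6, which encodes a microtubule-stabilising protein, was at 1.0 in each wild-type and heterozygous library and at 0.74, 0.81 and 0.718 in the homozygous (difference -0.244, SE 0.0254, adjusted p = 0.00247). The Slc35a2 part 22 call was lost without homozygous library 1 or wild-type library 1 or 3. For Scube2 it was lost without heterozygous library 2 or 3, homozygous library 2 or 3, or wild-type library 1 or 3.

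Other called rises lay in genes of varied function. Part 10 of Ttc17, a tetratricopeptide repeat gene, rose by 0.343 (adjusted p = 0.0136). Parts of Abitram and of the lipid phosphatase gene Lpin2 rose by 0.271 (adjusted p = 0.000427) and 0.217 (adjusted p = 0.00194) from wild-type means near 0. Those of Cyld, a deubiquitinase gene, Crim1, and Gk, the glycerol kinase gene, rose by 0.258 (adjusted p = 0.0273), 0.277 (adjusted p = 0.0293) and 0.173 (adjusted p = 0.0344). The Lpin2 call was kept in all 19 alternatives and the Abitram call in the 18 that gave it a value. That of Ttc17 was lost without homozygous library 1 or 3 or wild-type library 2 or 3. Without any 1 of the 9 libraries the Crim1 call was lost, and the same held for Cyld except homozygous library 3 and for Gk except heterozygous library 1 or 2.

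**Figure D2:**
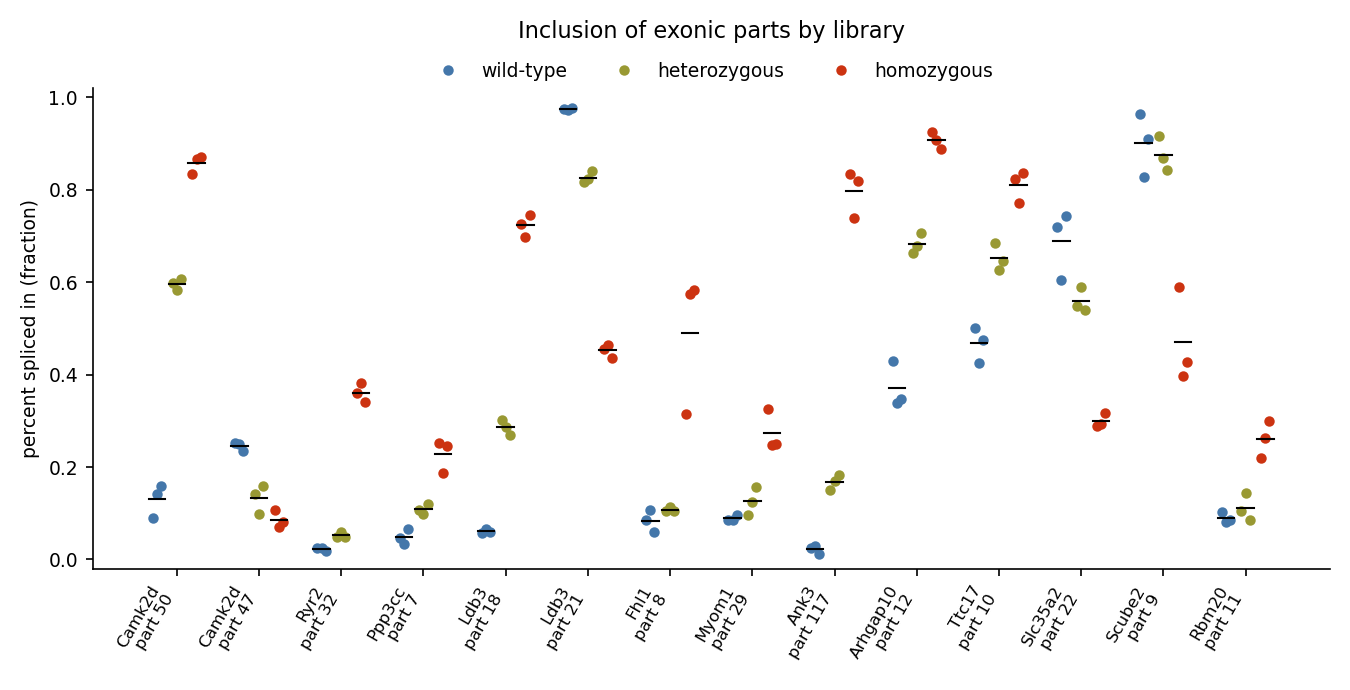
PSI (fraction, vertical axis) of selected exonic parts in every library; points are libraries, black lines group means, with 3 libraries per genotype. In Camk2d part 50, Ldb3 part 18 and Arhgap10 part 12 the heterozygous points lie between the other groups, whereas in Ryr2 part 32 and Fhl1 part 8 they lie near the wild-type points.

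The heterozygous libraries, which the contrast did not use except in the estimate of spread, divided the 55 gene identifiers. In the leading part of 21 identifiers the heterozygous mean had moved under 20% of the way from the wild-type to the homozygous mean, in 22 between 20 and 80%, and in 12 over 80%. Ryr2 lay at 8.56% of the way, Ank3 at 18.7%, Ldb3 at 34%, Arhgap10 at 58.1% and Camk2d at 64%. The identifiers over 80% included Ppa2, a mitochondrial pyrophosphatase gene, at 96.8%, Msh3, a mismatch repair gene, at 82.5%, and Pcnt, the pericentrin gene, under an identifier joined with an overlapping gene, at 99.2%. Ppa2 part 8 was at 0.774, 0.798 and 0.795 in wild-type, 0.981, 0.982 and 0.97 in heterozygous and 0.995, 0.971 and 0.985 in homozygous hearts. Both mutant groups overlapped each other and lay above wild-type.

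The largest of the 82 differences was in 2310002L09Rik, a gene on chromosome 4. Its called parts lie only in annotated first or last exons, so a change of transcript start or end cannot be told apart from splicing. Part 1 was at 0.0136, 0.109 and 0.043 in wild-type, 0.094, 0.292 and 0.0855 in heterozygous and 1.0, 0.996 and 1.0 in homozygous libraries (difference 0.944, SE 0.0609, adjusted p = 7.85e-05). Parts 3 and 4 of the same gene fell by 0.6 (adjusted p = 0.000168) and 0.681 (adjusted p = 8.52e-05).

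The list of RBM20 targets was assembled from general knowledge, with earlier results of these data known. It held 26 genes outside Ttn with a tested part, of which 6 had a called part. Over all gene identifiers outside Ttn with a tested part the share was 0.515%. The 26 genes held 347 tested parts, more per gene than the 55273 parts of 10687 identifiers. The part of this in the count was not tested. The 6 genes with a called part were Ank3, Camk2d, Ldb3, Myh7, Myom1 and Ryr2. The called part of Myh7 lies outside its overlap with Mhrt and Gm29015. In the other 20 no part was called. Pdlim5 part 16 was at 0.174, 0.232 and 0.281 in wild-type and 0.447, 0.448 and 0.439 in homozygous hearts (difference 0.216, adjusted p = 0.137). Lmo7 part 23 differed by 0.215 (adjusted p = 0.2), Mlip part 18 by 0.131 (adjusted p = 0.312), Camk2g part 22 by -0.156 (adjusted p = 0.297) and Trdn part 2 by -0.11 (adjusted p = 0.356). In these 5 genes homozygous and wild-type libraries did not overlap, and a miss of the threshold does not show that inclusion was alike. Tpm1 part 10 was at 0.878, 0.868 and 0.897 against 0.883, 0.896 and 0.901 (difference 0.0123, SE 0.0207).

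Gene expression was compared with inclusion counts summed per gene. Of 22049 genes tested, 969 genes called in expression (4.39%) passed edgeR's quasi-likelihood test at an adjusted p below 0.05, 413 higher (1.87%) and 556 lower (2.52%) in homozygous hearts, with a median log2 fold change of -0.0030 over all genes. Of the called genes, 146 rose and 158 fell by more than 2-fold. Before adjustment, 5001 of the 22049 genes had an edgeR p below 0.05. The counts of gene lists given below stand beside these shares. Homozygous and wild-type libraries did not overlap in 968 of the 969, against 30.5% of all genes tested. In bulk heart RNA, fewer cells of a type and less RNA per cell cannot be told apart. The number of genes called in expression depended on single libraries. It was 514, 307 and 295 without wild-type library 1, 2 and 3, and 309 and 380 without homozygous library 2 and 3.

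Of 29 measured Z-disc and stretch-sensing genes, 19 were called higher and 0 lower, with a median log2 fold change of 0.66. The 19 include Fhl1 and Ldb3, which also held called parts. Myot, which encodes the Z-disc protein myotilin, was at 62.2, 34.5 and 55 CPM in wild-type and 189, 230 and 212 CPM in the homozygous (log2 fold change 2.06, SE 0.191, adjusted p = 0.000367). Synpo2l, which encodes an actin-associated Z-disc protein, went from 60.3, 64 and 83 CPM to 133, 254 and 233 CPM (log2 fold change 1.58, SE 0.233, adjusted p = 0.00497). Both groups were apart in these genes, and homozygous library 1 was the lowest of its group. Tcap, the titin cap gene, rose, with a log2 fold change of 0.73 (adjusted p = 0.00302), and Hspb7, a small heat shock protein gene, one of 0.84 (adjusted p = 0.00276). Flnc, which encodes filamin C, was at 302, 204 and 300 CPM against 378, 940 and 781 CPM (log2 fold change 1.38, SE 0.276, adjusted p = 0.0217). Its call was lost without homozygous library 2 or 3 or wild-type library 2 or 3. The list's count of rises was 9 and 10 without homozygous library 2 and 3, and 8 and 10 without wild-type library 2 and 3. With a term for library numbers from 11000 up, here named the library number term, it was 8. These numbers hold wild-type libraries 2 and 3 and no homozygous library.

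Cardiac stress genes moved in the same direction, with 8 of 22 measured called higher, 0 lower and a median log2 fold change of 0.85. Of the 8, 5 are also in the Z-disc list, namely Ankrd1, Ankrd2, Xirp1, Xirp2 and Fhl1, so the lists are not independent. Myh7, also among the 8, lost its call with sums over constant parts only, those of a mean PSI of at least 0.95. In these sums 8 of 20 measured genes of the list were called higher. Acta1, the skeletal alpha-actin that the foetal and the overloaded heart express, was at 162, 209 and 240 CPM in wild-type, 242, 338 and 287 in heterozygous and 1380, 1920 and 1010 in homozygous hearts (log2 fold change over wild-type 2.82, SE 0.234, adjusted p = 0.000171). The lowest homozygous library was above the highest of both other groups. Nppb, the gene of brain natriuretic peptide, was at 104, 86 and 105 CPM against 186, 626 and 417 CPM (log2 fold change 2.06, SE 0.35, adjusted p = 0.00987). Without wild-type library 2 its call was lost. Ankrd1, which encodes a titin-binding ankyrin repeat protein induced by stretch, rose from 1020, 580 and 898 CPM to 1680, 2790 and 2600 CPM (adjusted p = 0.00587).

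Nppa, which encodes the atrial natriuretic peptide, was at 86.5, 89.7 and 86.4 CPM in wild-type and 542, 520 and 382 in homozygous hearts, and was not called (log2 fold change 2.46, SE 0.848, adjusted p = 0.12). Heterozygous library 3, which stands apart in atrial RNA, held 1050 CPM. Without that library Nppa expression was called, at the same fold change of 2.46 (adjusted p = 0.00018), and it was also called when only the homozygous and wild-type groups were fitted (adjusted p = 7.73e-05). The list's count of rises was 4 without wild-type library 2 and 5 with the library number term. Summed over the cardiac stress list, wild-type libraries held 7460 to 8560 CPM and homozygous libraries 12300 to 17000 CPM.

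Thick and thin filament genes were called higher in 8 of 29 and lower in 0, with a median of 0.24. The 8 include Myh7, which lost its call with constant parts only, where the list's count was also 8. Mybpc2, the fast skeletal form of myosin-binding protein C, went from 24.6, 19.8 and 27.6 CPM to 88.1, 91 and 95.7 CPM (log2 fold change 1.93, SE 0.156, adjusted p = 0.000151). Nrap, which encodes a protein of myofibril assembly, rose, its log2 fold change being 0.92 (adjusted p = 0.00416). Tnnc1 and Myl2, the cardiac troponin C and ventricular myosin light chain genes, rose by 0.57 and 0.79, and both calls were lost without homozygous library 2 or 3 or any 1 wild-type library. Of the skeletal muscle markers, Acta1 and Mybpc2 were called among 16 measured. The skeletal myosin heavy chains Myh1, Myh2 and Myh8 were at 0.08 CPM or less in each wild-type and homozygous library. The count of thick and thin filament genes called higher was 3, 4 and 5 without wild-type library 2, 3 and 1. It was 4 and 5 without homozygous library 2 and 3, and 4 with the library number term.

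Calcium handling genes were called in both directions, 3 higher and 1 lower of 30 measured. The count lower was 3 without heterozygous library 2, 2 without heterozygous library 3 and 0 without any other 1 library. Casq1, the calsequestrin of fast skeletal muscle, went from 6.94, 5.89 and 9.04 CPM in wild-type and 9.65, 6.88 and 12.5 in heterozygous to 40.5, 45.7 and 52.5 CPM in the homozygous (log2 fold change 2.67, SE 0.221, adjusted p = 0.000171). Casq2, the cardiac calsequestrin, was at 650, 736 and 745 CPM against 599, 599 and 801 CPM, with overlapping groups (log2 fold change -0.09, adjusted p = 0.736). Strit1, which encodes the micropeptide DWORF that activates the SERCA pump, rose from 3.18, 2.93 and 3.8 CPM to 6.65, 9.51 and 7.16 CPM (log2 fold change 1.23, SE 0.177, adjusted p = 0.00444). Atp2a2, the gene of that pump, fell from 10100, 9220 and 11600 CPM to 7380, 5930 and 7350 CPM (log2 fold change -0.58, SE 0.146, adjusted p = 0.0499). The Atp2a2 call was lost without any 1 of the wild-type and homozygous libraries or heterozygous library 1, and Camk2b, the third gene called higher, lost its call without any 1 homozygous library or wild-type library 2 or 3.

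Ion channel genes were called lower in 9 of 35 and higher in 0, with a median log2 fold change of -0.56. Hcn2, a pacemaker channel gene, fell from 26.4, 20 and 24.4 CPM through 17.3, 17.1 and 16.4 to 8.26, 7.81 and 5.72 CPM (log2 fold change -1.70, SE 0.145, adjusted p = 0.000204). Scn4b, a sodium channel beta subunit gene, was at 28.4, 16.8 and 20.5 CPM in wild-type and 6.01, 5.17 and 5.33 CPM in the homozygous (log2 fold change -1.99, SE 0.245, adjusted p = 0.00192). Homozygous libraries lay below all others for both genes. Kcnd2, which encodes a channel of the transient outward potassium current, fell from 13.9, 13.5 and 13.4 CPM to 6.33, 5.3 and 5.78 CPM (log2 fold change -1.23, SE 0.153, adjusted p = 0.00209). Kcnj3, which is also an atrial marker, fell from 34.3, 31.9 and 35.8 CPM to 18.7, 12.4 and 17.5 CPM (adjusted p = 0.0405), a call lost without any 1 library except heterozygous library 2 or 3. The atrial markers Myl7, Myl4 and Sln differed between the same groups by -2.73, -2.28 and -2.77 on the log2 scale without being called, and their part in the Kcnj3 result was not tested. The list's count of falls was 4, 5, 6 and 4 without homozygous library 2, homozygous library 3, wild-type library 2 and wild-type library 3. With the library number term that count was 4.

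**Figure D3:**
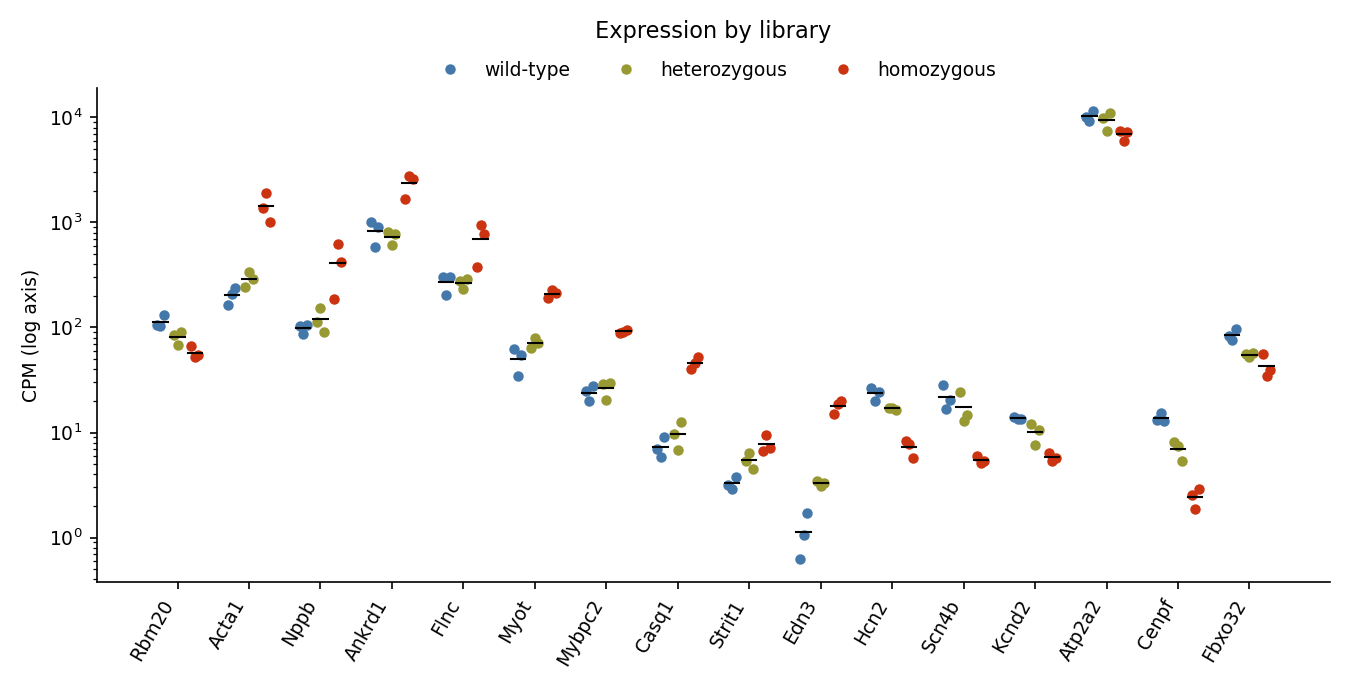
CPM of selected genes in every library on a log axis; points are libraries, black lines group means, with 3 libraries per genotype. Homozygous points lie above both other groups for Acta1, Casq1, Mybpc2 and Edn3 and below them for Hcn2, Scn4b, Kcnd2 and Cenpf.

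Protein folding and turnover genes moved in both directions. Of 29 measured chaperone genes 6 were called higher and 2 lower. Hspb1, a small heat shock protein gene, rose, with a log2 fold change of 1.08 (adjusted p = 0.0146), and the endoplasmic reticulum genes Canx and Herpud1 fell by 0.60 each (adjusted p = 0.0176 and 0.0444). Hspa1a and Hspa1b, which are near-identical copies and share reads, rose by 1.67 and 1.32. Fbxo32, the muscle ubiquitin ligase atrogin-1, was at 83.8, 75.6 and 97.7 CPM in wild-type, 55.5, 51.8 and 57.6 in heterozygous and 55.7, 34.7 and 39.7 in homozygous hearts (log2 fold change -0.98, SE 0.16, adjusted p = 0.00836). Klhl40 and Klhl41, which encode stabilisers of thin filament proteins, rose, at adjusted p = 0.00188 and 0.00276. The ubiquitin ligase and autophagy list held 3 genes called higher and 2 lower of 27 measured, with 1 lower without heterozygous library 1, homozygous library 2 or 3 or any 1 wild-type library, and 5 lower without heterozygous library 3. DESeq2 called 4 higher and 6 lower. Without homozygous library 2 or 3, or wild-type library 2 or 3, the count of chaperone genes called higher was 2, and the calls of Hspb1 and Hspa1b were lost. The same held with the library number term. Canx lost its call without homozygous library 2 or wild-type library 1 or 3, and Herpud1 without homozygous library 2 or 3 or any 1 wild-type library.

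Genes of energy metabolism gave few calls. Among 19 tricarboxylic acid cycle genes edgeR called 0 and DESeq2 5, with 9 at an unadjusted p below 0.05 and a median of -0.20. Among 36 genes of fatty acid uptake and oxidation edgeR called 0 and DESeq2 6, with 13 at an unadjusted p below 0.05 and a median of -0.17. Of 40 nuclear genes of oxidative phosphorylation, Ndufb3 alone passed in edgeR (log2 fold change 0.58, adjusted p = 0.02), with a list median of 0.21. Yet 36 of the 40 lay above 0, and 18 had an unadjusted p below 0.05. Homozygous and wild-type libraries did not overlap in 25 of the 40, against 30.5% of all genes tested. In this list 4 passed without heterozygous library 2, 6 without heterozygous library 3 and 2 without homozygous library 1. The count was 0 without homozygous library 2 or 3 or wild-type library 2 or 3, and 0 with the library number term. Glycolysis and glycogen genes were called lower in 3 of 28, namely Hk1, Pfkl and the glucose transporter gene Slc2a4, by 0.62, 0.40 and 0.42 on the log2 scale. The Ndufb3, Pfkl and Slc2a4 calls were lost without homozygous library 2 or 3 or wild-type library 2 or 3, and Pfkl also without wild-type library 1, which left 1 glycolysis gene called without each of homozygous libraries 2 and 3 and wild-type libraries 2 and 3. Without homozygous library 1 there were 5, and with the library number term 0. With DESeq2 10 glycolysis genes were lower and 8 oxidative phosphorylation genes higher.

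Splicing regulators were called higher in 6 of 41 and lower in 2, Rbm20 and Rbfox1. Rbfox1, a splicing factor gene of heart and brain, fell from 24, 21.2 and 27 CPM to 15.6, 12.9 and 15 CPM (log2 fold change -0.73, SE 0.138, adjusted p = 0.0164). Srpk3, a muscle kinase of splicing factors, went from 30.8, 28.2 and 32 CPM to 44.7, 45.9 and 44.4 CPM (log2 fold change 0.57, SE 0.0834, adjusted p = 0.00491). Srsf2, Srsf6, Srsf7, Tra2a and Clk1 rose by 0.36 to 0.51 on the log2 scale. The Srpk3 call was kept in all 17 alternatives, whereas Rbfox1 lost its call without homozygous library 2 or 3 or wild-type library 3. The count of rises in the list was 1 without wild-type library 2 or with the library number term. It was 2 without wild-type library 3 or homozygous library 3, and 3 without wild-type library 1 or homozygous library 1 or 2.

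Extracellular matrix, fibroblast and immune genes gave few calls. Over all genes 4.39% were called, and a count of 0 or 1 in lists of this size lies near that share. Of 45 matrix genes Tgfb2 was called, a growth factor gene at 4.29, 3.88 and 3.79 CPM in wild-type and 7.8, 8.48 and 8.5 CPM in the homozygous (log2 fold change 1.05, SE 0.169, adjusted p = 0.00773). Without heterozygous library 3, 2 matrix genes were called lower, and without homozygous library 1 or wild-type library 1, 2 were called higher. Among 10 fibroblast, 11 endothelial and 20 macrophage and leukocyte markers edgeR and DESeq2 called 0, with 2, 3 and 3 at an unadjusted p below 0.05 and list medians of 0.10, 0.05 and -0.01. Summed fibroblast markers were at 2050 to 2390 CPM in wild-type and 2450 to 2580 CPM in homozygous libraries, without overlap. The endothelial sums did not overlap either, at 1590 to 1820 and 1840 to 2110 CPM, nor did those of smooth muscle and pericyte markers, which were lower in homozygous libraries, at 977 to 1030 and 801 to 934 CPM. The part of these differences in other results was not tested. Among 7 erythroid markers both tools called 0, with 0 at an unadjusted p below 0.05. Of 27 interferon response genes edgeR called 0 and DESeq2 1, with 1 at an unadjusted p below 0.05. Of 24 immediate early genes edgeR called 0 and DESeq2 2, with 2 at an unadjusted p below 0.05, and edgeR called 3 higher without wild-type library 1, 1 higher without homozygous library 1 and 3 lower with a term for the library number. Of 18 circadian clock genes edgeR called 0 and DESeq2 2, with 4 at an unadjusted p below 0.05. Smooth muscle and pericyte markers gave 1 call of 12, Abcc9, a potassium channel subunit gene that cardiomyocytes also express, a call lost without homozygous library 2 or wild-type library 2 or 3. Atrial markers gave 1 call of 12, Kcnj3. They gave 0 without heterozygous library 1 or any 1 wild-type or homozygous library, and without heterozygous library 3 they gave 1 higher and 2 lower. Of 11 cardiomyocyte markers 3 were called higher, Tnnc1, Myl2 and Actn2, and 0 without homozygous library 2 or 3 or wild-type library 1 or 2, 1 without heterozygous library 1 or wild-type library 3.

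Further lists are set beside the 4.39% called among all genes tested, 1.87% higher and 2.52% lower. Of 31 genes of hypertrophic and growth signalling 2 were called higher, Edn3 and Tgfb2, and 1 lower, Fgf13, with 0 lower without heterozygous library 1, homozygous library 1 or 2 or wild-type library 2 or 3. Of 22 genes of integrated stress and amino acid metabolism 2 were lower, Slc7a1, a cationic amino acid transporter gene, by 1.07 and Aldh1l2, a mitochondrial folate enzyme gene, by 1.03 on the log2 scale. Slc7a1 lost its call without homozygous library 2 or 3, and Aldh1l2 without homozygous library 1 or 2 or any 1 wild-type library. The list held 2 genes called higher without wild-type library 1, and 1 without heterozygous library 1 or 2. Of 30 cardiac transcription factors Mef2a was called lower, at -0.45 (adjusted p = 0.0323), a call lost without any 1 wild-type or homozygous library, while 2 were called lower without heterozygous library 2 or 3. Of the 28 measured RBM20 targets 6 were called higher and 0 lower, Enah, Ldb3, Lrrfip1, Myh7, Pdlim3 and Pdlim5. The count higher was 4 without homozygous library 2 or 3 or wild-type library 1 or 3, and 1 without wild-type library 2. With constant parts only, Myh7 was not called, at a log2 fold change of -0.10. The list then held 5 genes called higher and 1 lower, with a median of 0.02 against 0.11 with all parts.

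**Figure D4:**
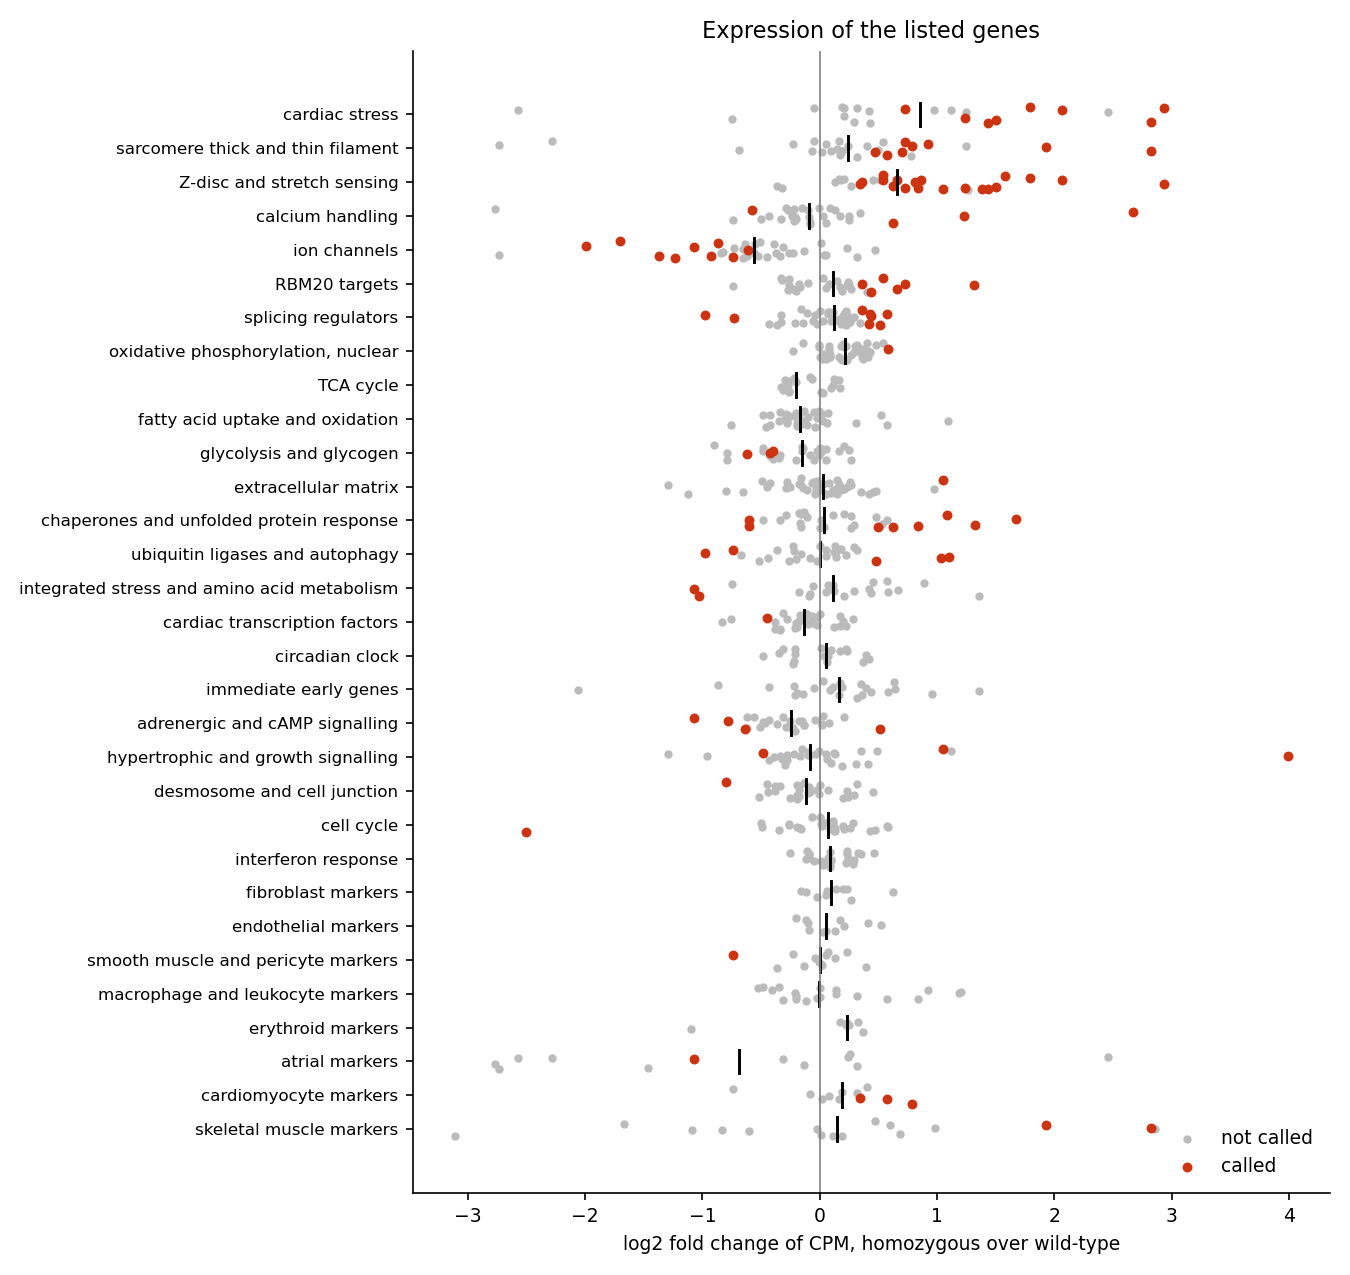
Log2 fold change of CPM, homozygous over wild-type, of the measured genes of 31 lists; points are genes, red where called, black bars list medians. Points of the Z-disc and stress lists lie mostly right of 0 and those of the ion channel list mostly left.

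The largest changes of single genes lay mostly outside these lists. Edn3, which encodes endothelin-3, was at 0.618, 1.05 and 1.72 CPM in wild-type, 3.42, 3.11 and 3.33 in heterozygous and 15.1, 18.8 and 20 in homozygous hearts (log2 fold change 3.99, SE 0.305, adjusted p = 0.000136). St8sia1, a ganglioside sialyltransferase gene, rose from 0.0869, 0.106 and 0.128 CPM to 1.54, 1.4 and 1.91 CPM (log2 fold change 3.91, SE 0.27, adjusted p = 6.46e-05). The 3 groups were apart in both genes, with heterozygous libraries above all wild-type libraries. Syndig1 rose, its log2 fold change being 3.85 (adjusted p = 0.000391).

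Among the falls, Cenpf, which encodes a centromere protein that striated muscle cells also carry at the nuclear envelope, went from 13.3, 15.4 and 12.9 CPM through 8.05, 7.5 and 5.37 to 2.56, 1.88 and 2.93 CPM (log2 fold change -2.50, SE 0.193, adjusted p = 0.000138). It was the only called gene of 29 measured cell cycle genes, a share near the 4.39% over all genes. Rtn4r, the Nogo receptor gene, fell from 3.91, 3.93 and 4.18 CPM to 0.464, 0.197 and 0.276 CPM (log2 fold change -3.68, SE 0.287, adjusted p = 0.000138). In these genes no homozygous library reached the lowest wild-type library. The calls of Edn3, St8sia1, Syndig1, Cenpf and Rtn4r were kept in all 17 alternatives.

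The greatest falls in size, apart from genes with no count in a group, clustered on chromosome 4 beside 2310002L09Rik (73857608 to 73869083). Gm11756 (73834965 to 73838997) was at 5.97, 6.15 and 6.07 CPM in wild-type, 5.56, 4.5 and 4.51 in heterozygous and 0.106, 0.103 and 0.0143 in homozygous libraries (log2 fold change -6.32, SE 0.402, adjusted p = 5.51e-05). Gm11757, Gm11758 and Gm13871, which start at 73805303, 73790456 and 73820144, had log2 fold changes of -7.25, -6.75 and -6.75. Counts of Gm11758 and Gm13871 were equal in 7 of the 9 libraries, so these genes cannot be told apart and their single values are uncertain. Nags, the gene of the urea cycle enzyme N-acetylglutamate synthase, had no reads in any homozygous library and was at least 4.44-fold lower, against a floor of 3 counts per library. It lost its call with DESeq2 and without any 1 wild-type or homozygous library.

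Splicing change and expression change were then set side by side per gene. All 55 gene identifiers with a called part were tested for expression, and 13 were called (23.6%), 9 higher and 4 lower. Myh7 and Mhrt are both among the 13 and Gm29015 is among the 55, although reads of these genes cannot be told apart where they overlap. Among the 10517 genes outside Ttn with a tested part, 5.55% were called in expression, 2.42% higher and 3.13% lower. Genes with a called part had a higher level, with a median of 24.1 CPM against 13 CPM, and the part of that difference in the count was not tested. Their median log2 fold change in size was 0.30, against 0.19 over genes with a tested part. Taken the other way, 13 of the 584 genes called in expression with a tested part held a called part (2.23%). Across the 10517 genes, Spearman's rho between the largest PSI difference and the log2 fold change, both in size, was 0.05. Genes are not independent replicates, and both measures come from the same libraries and reads.

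The 13 genes include Ldb3, Fhl1, Myh7, Mhrt, Scube2, Map6, Ppa2, Ttc17, Pnpla7, Rbm20, Gm32202 and 2310002L09Rik. The signs of the PSI difference and of the log2 fold change were alike in 7 of the 13. Ldb3 was at 654, 590 and 722 CPM in wild-type and 948, 980 and 927 CPM in the homozygous (log2 fold change 0.54, SE 0.0864, adjusted p = 0.00761). The groups did not overlap, and the expression calls of Ldb3 and 2310002L09Rik were kept in all 17 alternatives. Their part calls were kept in all 19, except part 2 of 2310002L09Rik, whose call was lost in 8, among them the fits without any 1 wild-type or homozygous library. Fhl1 rose from 92.3, 82.9 and 86.7 CPM to 152, 280 and 272 CPM (log2 fold change 1.43, SE 0.187, adjusted p = 0.00275), and as in the inclusion of its called part, homozygous library 1 was the lowest of its group. The expression call was lost without wild-type library 2 for Myh7. It was lost without homozygous library 2 and wild-type library 3, each alone, for Mhrt, Map6, Scube2, Ppa2, Ttc17 and Pnpla7, and without further libraries in each.

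Some genes with a called part were not called in expression. Ank3 was at 63.1, 59.3 and 83.6 CPM in wild-type and 82.1, 59.8 and 71 CPM in the homozygous (log2 fold change 0.05, SE 0.164, adjusted p = 0.902), and the sign turned in 4 alternatives. Camk2d was at 123, 144 and 158 CPM against 143, 129 and 163 CPM (log2 fold change 0.03, SE 0.129, adjusted p = 0.918), and here the sign turned in 3. Groups overlapped in both genes. Arhgap10 differed by 0.14 (SE 0.0759, adjusted p = 0.302), with homozygous libraries at 58.9 to 62.6 CPM above wild-type libraries at 54.2 to 56.4. Ryr2, at 1170, 926 and 1350 CPM against 757, 580 and 731 CPM, was not called (log2 fold change -0.74, SE 0.192, adjusted p = 0.0557), although the groups did not overlap. Ryr2 expression was called in 7 of 17 alternatives, among them DESeq2 (adjusted p = 0.0041), constant parts only (adjusted p = 0.0485), and the fits without heterozygous library 2 or 3 (adjusted p = 0.018 and 0.0494).

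Other genes were called in expression while their tested parts were not called. Edn3 had 3 tested parts with a largest difference of 0.0191, Nrap had 1 at 0.0204, and Xirp2, an actin-binding repeat gene, had 4 at 0.0595. In the ion channel list 22 genes with 123 tested parts held 0 called parts by limma, with 11 parts at an unadjusted p below 0.05. With 0.148% called among all tested parts outside Ttn, a count of 0 in this list lies near the background. The Z-disc list, with 15 genes and 65 tested parts, held called parts in Fhl1 and Ldb3.

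A part that changes its inclusion adds reads to a sum per gene, so the sums were repeated with constant parts only, those of a mean PSI of at least 0.95. Of the 55 identifiers 51 had such parts, and 14 were called, of which 12 were also called with all parts. The others were Ryr2 and Slc35a2. Ldb3 differed by 0.37 (adjusted p = 0.045) with constant parts against 0.54 with all parts. For Fhl1 the values were 1.39 and 1.43, and for Rbm20 -0.99 and -0.98. Myh7 lost its call, at -0.10 (adjusted p = 0.795) against 0.73 with all parts.

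**Figure D5:**
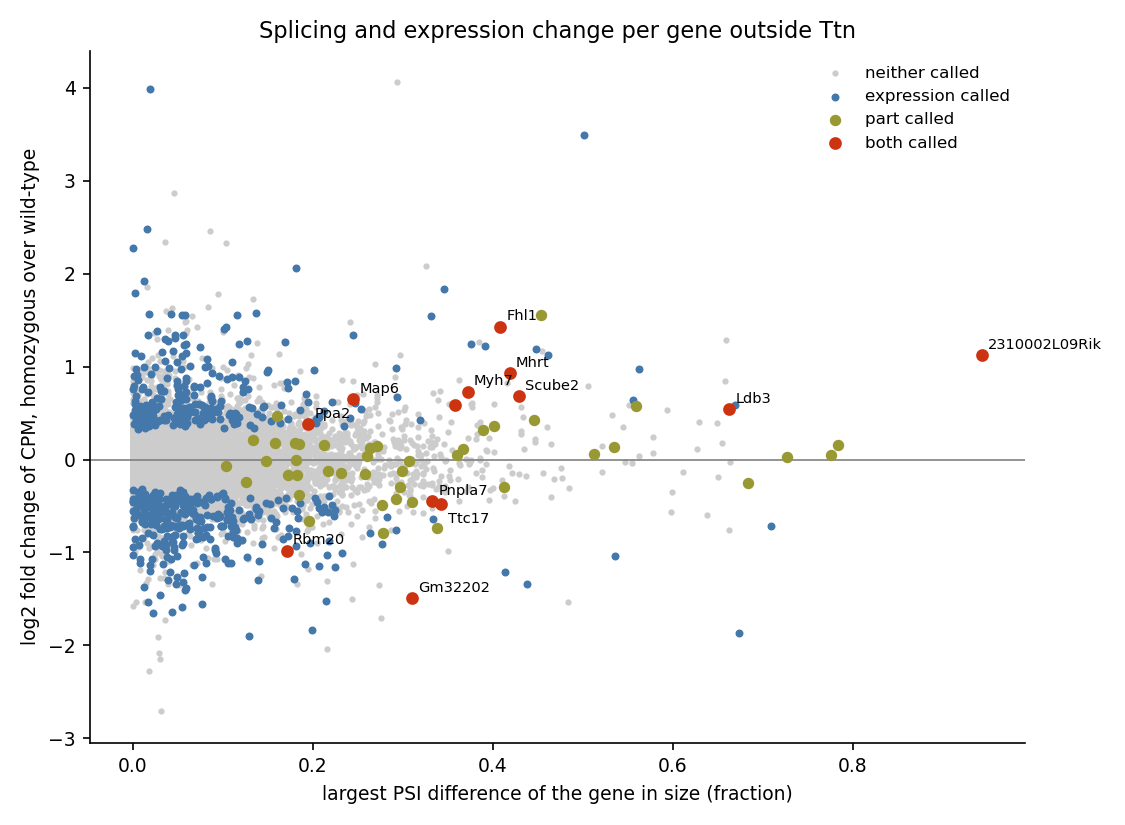
Largest PSI difference in size over a gene's tested parts, called or not (fraction, horizontal axis), against the log2 fold change of its CPM, homozygous over wild-type (vertical axis), for 10517 genes outside Ttn with a tested part. Labelled genes were called in both; Ank3 and Camk2d, with PSI differences of 0.776 and 0.727, lie close to a log2 fold change of 0.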

How the data were processed

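Paired-end reads of 150 bases were obtained from total heart RNA with a directional library kit, per the labels' protocols. The submitters' processing notes name cutadapt 1.8, Salmon 1.2.1 and the build GRCm39; the tool that counted exonic parts is not given in the sources used here. The authors deposited raw inclusion and exclusion counts for 480017 exonic parts under 54660 gene identifiers, and PSI as a fraction. The deposited PSI equalled inclusion reads over part length plus 148, divided by that value plus exclusion reads over 148, with a largest gap of 5.0e-07. The authors' group means of PSI, also fractions, and their differences, a deposited score, were not used.

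Parts with a PSI and at least 10 reads in each of the 9 libraries, with PSI reaching 0.05 in some library and 0.95 or less in some library, were fitted with limma 3.58.1 (variance trend, all 9 libraries, 3 groups, 6 residual degrees of freedom), and p-values were adjusted by Benjamini-Hochberg over all tested parts, Ttn included. Inclusion counts summed per gene went into edgeR 4.0.16, with TMM factors, filterByExpr and its quasi-likelihood test, over all genes. DESeq2 1.42.0 was an alternative. CPM are counts scaled to a common size of the TMM-adjusted library. The software was R 4.3.3 with the package data.table (1.17.8), and matplotlib 3.10.9, numpy 2.4.6 and pandas 2.3.3 under Python 3.11.15. Each test was checked on simulated data with planted changes and a fixed spread, which held no outlying library or batch.

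Named parts were those of Rbm20, 1 per RBM20 target, and 25 more genes by size of called difference; other identifiers with a called part could be named by their difference. Named genes were Rbm20, the 15 largest called changes in each direction without overlap, up to 5 of each list by p, and genes called in both measures. Casq2, Myl7, Myl4, Sln, Gm29015, called list members beyond 5 and the expression of uncalled genes with a called part were named after their values were seen. The 31 lists, the genes compared and the alternatives were chosen with earlier results of these data known. Genes under a joined identifier were left out of the list counts. Coding context came from GENCODE M21 by matched exon structure, with no conversion of coordinates. Some genes and 1 exon sequence that met these rules are not reported here.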

Additional observations from a re-analysis of the deposited data

How the results depend on the processing

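The 82 called parts outside Ttn lay in 55 gene identifiers. The PSI threshold of 0.2 left 36 identifiers. No filter on constant parts gave 49 parts in 31 identifiers, fitting only the 2 groups gave 44 in 25, and a term for library numbers from 11000 up, which hold wild-type libraries 2 and 3 and no homozygous library, gave 42 in 23. Leaving out each library in turn gave 54 to 150 parts in 36 to 83 identifiers, the lowest without wild-type library 3 for parts and for identifiers, and the highest without homozygous library 2. Of the 82 parts, 36 in 23 identifiers were called without each library, 26 in 15 identifiers under every alternative that gave them a value other than the threshold of 0.2, and none changed sign. Against 969 genes called in expression, DESeq2 called 2574, the fit without a low-count filter 2384 and that with the library number term 297, and leaving out a library gave 295 to 1319. Genes called in both numbered 13, against 20 by DESeq2, 21 without the low-count filter, 8 without the filter on constant parts, 5 under the library number term, and 4 to 20 on leaving out a library, the lowest without wild-type library 3. Rbm20 expression kept its direction and call in all 17 alternatives, from -1.08 to -0.85, and from -1.08 to -0.86 on leaving out a library. A term for the number that opens each column name, added after seeing the data, gave 64 parts, 43 identifiers, 826 genes and 10 genes in both.

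Replicate numbers in the titles were not found to pair the libraries. Deviations of same-numbered wild-type and homozygous libraries correlated at -0.342, -0.027 and 0.337 in expression and -0.005, -0.009 and 0.031 in PSI. With the number as a replicate block there were 45 parts in 28 identifiers, 2207 genes called in expression and 12 genes in both, and Rbm20 expression was at -0.98. Signs turned for Ank3 expression, to -0.04 with constant parts and to negative values without homozygous library 1 or wild-type library 1 or 2, in a range of -0.06 to 0.21 on leaving out a library. They turned for Camk2d expression, to -0.03 with constant parts and without homozygous library 3 or wild-type library 1, in a range of -0.06 to 0.12, and for Myh7 expression, to -0.10 with constant parts. Of the 116 called genes named or listed, 41 kept their call in all 17 alternatives. With the library number term 69 of them lost it, Fbxo32 and Hk1 included. The cause of these differences was not tested.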

Other observations

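Further genes with a called part had both mutant groups near 1. Zfp458 part 6, in a zinc finger gene, was at 0.412, 0.297 and 0.238 in wild-type and at 1.0 in each heterozygous and homozygous library (difference 0.684, SE 0.0459, adjusted p = 0.0001), with 19 to 57 reads per library over a part of 3872 bases. Only 2 of these reads in each wild-type library, and 0 in every other library, skipped the part. Aox1 part 26, in the aldehyde oxidase gene, was at 0.829, 0.847 and 0.83 in wild-type, 1.0, 0.987 and 1.0 in heterozygous and 0.992, 1.0 and 0.994 in homozygous libraries (adjusted p = 0.00153). H2bc4, a histone gene of a multigene family whose copies can share reads, was at 0.801, 0.809 and 0.822 in wild-type, and between 0.977 and 0.996 in the mutant libraries. In all 3 genes no mutant library reached down to the wild-type range.

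Adrenergic signalling genes gave 3 falls and 1 rise among 28 measured. There were 0 falls without homozygous library 2 or wild-type library 3, 1 without homozygous library 3 or wild-type library 1 or 2, and 5 without heterozygous library 2 or 3. Adra1d, an alpha-1 adrenergic receptor gene, fell by 0.78 on the log2 scale (adjusted p = 0.0233), a call lost without homozygous library 2 or 3 or wild-type library 2 or 3. Adcy9, an adenylyl cyclase gene, fell from 13, 11.2 and 16 CPM to 7.1, 4.49 and 7.51 CPM (log2 fold change -1.07, adjusted p = 0.0221), and Pde4d, a cAMP phosphodiesterase gene, fell by 0.64 on the log2 scale (adjusted p = 0.0309). Gnas, the stimulatory G protein gene, rose by 0.51 (adjusted p = 0.014). The Adcy9 call was lost without homozygous library 2 or wild-type library 1 or 3, the Pde4d call without homozygous library 2 or 3 or any 1 wild-type library, and the Gnas call without homozygous library 2 or wild-type library 2 or 3. The desmosomal cadherin gene Dsg2 fell by 0.80 (adjusted p = 0.0316), a call that was lost without any 1 wild-type or homozygous library.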
